A study of Homo sapiens with 6 samples.

Results

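Proteasome transcripts were compared between A375 cells that received PAL and A375 cells that did not. A375 is a cell line from a human malignant melanoma, and PAL is Ringer's lactate, an infusion fluid, that was activated by low-temperature plasma. The members were the protein-coding genes whose symbol is PSMA, PSMB, PSMC, PSMD, PSME, PSMF or PSMG followed by a number and nothing more, which gave 48 of 58735 genes in the table, of which 19951 are protein-coding. PSMC3IP was left out because its symbol goes on after the number, and it encodes a protein of meiotic recombination. The groups were 3 PAL libraries and 3 control libraries of poly-A enriched RNA. Both groups were the same cell line, and its labelled tissue was skin. The deposited columns of the PAL libraries carry the number 64, which the sources used here do not explain, and these sources give no dose, exposure time, culture conditions or solution for the control cells. They also do not say whether replicates were separate cultures, so p-values measure only the spread among the 6 libraries, and that spread may be technical.

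The proteasome is the protease that degrades most short-lived and damaged proteins once they carry a chain of ubiquitin. Its 20S core is a barrel of outer alpha rings and inner beta rings, and the beta rings hold the proteolytic sites. A 19S cap binds the ends of the barrel: its base unfolds the substrate with a ring of ATPases, and its lid removes the ubiquitin. Other activators can take the place of the cap, and dedicated chaperones assemble core and base. When proteasome activity falls, the transcription factor NFE2L1 is processed to an active form and raises the transcription of most subunit genes together, through sites known as antioxidant response elements. Cancer cells are known for a high demand on the proteasome, and interferon replaces catalytic beta subunits by those of the immunoproteasome.

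The 48 genes comprised 8 of the alpha ring (PSMA1 to PSMA8), 7 of the beta ring (PSMB1 to PSMB7) and 4 tissue-specific or inducible beta subunits (PSMB8 to PSMB11). The cap had 17, made up of 6 base ATPases (PSMC1 to PSMC6), 3 other base subunits (PSMD1, PSMD2 and PSMD4) and 8 lid subunits (PSMD3, PSMD6, PSMD7, PSMD8, PSMD11, PSMD12, PSMD13 and PSMD14). There were 3 chaperones of base assembly (PSMD5, PSMD9 and PSMD10), 4 chaperones of core assembly (PSMG1 to PSMG4), 4 activator genes (PSME1 to PSME4) and 1 inhibitor (PSMF1).

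The libraries held 15064971 to 17711389 reads assigned to genes. Levels are given as FPKM, fragments scaled by gene length and by library size, as deposited, in the order of replicates 1, 2 and 3. The library size behind the deposited FPKM was not the plain total of assigned reads. It was 0.980 to 0.984 of that total in the control libraries and 1.040 to 1.047 in the PAL libraries. A size from the median of gene ratios between libraries, put on the same scale, stood at 0.9992 to 1.0007 of it. Of the 9 markers of melanocytes and melanoma, SOX10 stood at 89.7, 86.4 and 88.1 FPKM in the control libraries and 108, 108 and 107 in the PAL libraries, and it was higher in PAL (log2 difference 0.29, limma adjusted p = 3.88e-04). S100B stood at 5.54, 4.52 and 5.48 FPKM in the control libraries and 3.98, 3.89 and 4.24 in the PAL libraries, and it was lower in PAL (log2 difference -0.29, adjusted p = 0.03, from 0.0113 to 0.1 over the alternative settings that tested it). The call was lost without control replicate 1, control replicate 3 or any PAL replicate. It was also lost in other settings described below: TPM, plain read totals, voom, no filter on low values, and without both libraries numbered 3. MITF stood between 2.12 and 2.40 FPKM and MIA between 0.145 and 0.919 FPKM. The pigmentation genes PMEL, MLANA, TYR, TYRP1 and DCT were all below 0.5 FPKM, with TYR at 0 in every library. Markers of leukocytes summed to at most 0.299 FPKM, with 2 of 4 at 0, and those of endothelium to at most 0.963 FPKM. Keratinocyte markers summed to 3.61 to 4.41 FPKM in control and 2.65 to 3.36 FPKM in PAL, nearly all of it KRT14, and fibroblast markers to 4.14 to 4.69 and 3.06 to 4.47 FPKM, mostly LUM. KRT14 was lower in PAL (log2 difference -0.31, limma adjusted p = 0.0422). That call was lost in TPM and with plain read totals, scalings that are explained further below. What part of any difference below moved with these markers was not tested.

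Promoter sequence is shown for 4 of the members that passed the test described further below, because NFE2L1 acts through a short DNA element there. RefSeq promoter entries on GRCh38.p14, from 250 bases before the transcription start to 50 after it, were matched for 42 of the 48 members. There was no entry matched for PSMA7, PSMB1, PSMB6, PSMB7, PSMD4 and PSMG3. Capitals mark the letters TGACNNNGC, the core of the antioxidant response element, on either strand. The sequences run 5′ to 3′ in the direction of the gene and end before the first exon base in GENCODE 29. PSME4, PSMD5 and PSMC1 were lower in PAL, and PSMB3 was higher.
PSME4, chr2:53970994-53971243 on the minus strand: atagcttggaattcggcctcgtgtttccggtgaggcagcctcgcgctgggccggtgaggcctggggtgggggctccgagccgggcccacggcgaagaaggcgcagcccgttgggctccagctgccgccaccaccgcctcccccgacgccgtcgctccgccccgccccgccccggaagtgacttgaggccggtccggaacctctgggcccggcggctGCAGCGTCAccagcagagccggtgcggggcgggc
PSMD5, chr9:120842985-120843172 on the minus strand: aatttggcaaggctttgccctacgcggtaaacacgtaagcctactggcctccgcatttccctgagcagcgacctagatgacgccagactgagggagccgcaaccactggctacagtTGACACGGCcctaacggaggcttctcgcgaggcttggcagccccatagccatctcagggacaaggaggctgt
PSMC1, chr14:90256303-90256494 on the plus strand: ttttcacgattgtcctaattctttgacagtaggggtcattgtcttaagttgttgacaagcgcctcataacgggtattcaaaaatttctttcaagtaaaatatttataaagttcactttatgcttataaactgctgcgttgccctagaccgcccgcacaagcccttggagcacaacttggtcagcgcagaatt
PSMB3, chr17:38752491-38752735 on the plus strand: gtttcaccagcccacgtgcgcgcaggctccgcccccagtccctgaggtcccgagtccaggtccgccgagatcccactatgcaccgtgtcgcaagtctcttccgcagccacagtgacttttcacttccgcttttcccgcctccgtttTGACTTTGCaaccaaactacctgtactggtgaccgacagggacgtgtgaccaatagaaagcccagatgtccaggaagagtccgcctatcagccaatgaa

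The element's letters lay at -34 to -26 from the RefSeq start in PSME4, at -134 to -126 in PSMD5 and at -104 to -96 in PSMB3, and PSMC1 had none in its window. They were present in 13 of the 42 member windows (31%), against 13.6% of 27305 promoters of the same length. The 13 tested members with the letters had a median log2 difference of -0.017 between PAL and control, 1 called higher and 3 lower, and the 26 without them had -0.015, with 0 higher and 2 lower. Among the called members, PSMD1 also held them, after its start at 39 to 47, and PSMD2 did not. The letters GAANNTTCNNGAA of a heat shock element, bound by the heat shock factor HSF1, were found in 0 of 42 member windows and in 0.487% of all promoters. With so low a share, 0 is the likely count in 42 windows of any kind, so it does not set the members apart. GAAANNGAAA, letters of an interferon-stimulated response element, were found in 6 of 42 (14.3%), against 3.65% of all. The 6 were PSMA4, PSMB4, PSMB10, PSME1, PSME2 and PSMG4, while the inducible PSMB8 and PSMB9 had no such match. No match of 1 motif overlapped a match of another in a member window. A match describes letters only, and it shows no binding.

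Differences between PAL and control were small throughout the proteasome. Of the 45 members that could be tested, 2 rose in PAL (PSMB3 and PSMG3), 5 fell (PSME4, PSMD5, PSMD2, PSMD1 and PSMC1) and 38 did not pass. The share called was 15.6% of members, against 25.9% of all 12258 tested genes, with 11.4% of all genes called higher and 14.5% lower. Among genes with a mean of at least 5 FPKM, 17.5% of 40 members were called, against 32.3% of 6857 genes. The test was limma on log2(FPKM + 1), two-sided, with Benjamini-Hochberg adjustment over all tested genes and a threshold of 0.05. A gene was tested where 3 or more libraries had 1 FPKM or more. Differences are PAL minus control on that log2 scale, where the added 1 shrinks the difference of genes with low values. With 1 library left out, fewer genes passed: 2051 without control replicate 2, 1972 without PAL replicate 1 and 1855 without PAL replicate 2, in place of 3179. The members called were then 1 higher and 2 lower without PAL replicate 1 or PAL replicate 2, 2 and 2 without control replicate 2, 1 and 3 without control replicate 1, 2 and 3 without control replicate 3, and 2 and 5 without PAL replicate 3. The untested members were PSMA6, at 0.516 to 0.825 FPKM, and PSMA8 and PSMB11, which had 0 reads in every library.

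The size of the differences also lay below that of other genes. The median absolute log2 difference was 0.051 over the tested members and 0.11 over all tested genes. Members ranged from -0.27 for PSME4 to 0.27 for PSMB10, with a median of -0.0088 beside 0.0043 for all genes. In bulk RNA, fewer cells that express a gene and less of its RNA per cell cannot be told apart. The 95% interval of the difference lay within 1.25-fold in either direction for 42 of 45 members, the exceptions being PSME4, PSMB9 and PSMB10, and for 7797 of 12258 genes. PAL and control values did not overlap in 14 members (31.1%), against 44.9% of all tested genes. For scale, HSPA1A, an inducible heat shock protein that fell in PAL, went from 1386 ± 25.4 to 65.3 ± 26.1 FPKM (SD, n = 3).

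**Figure D1:**
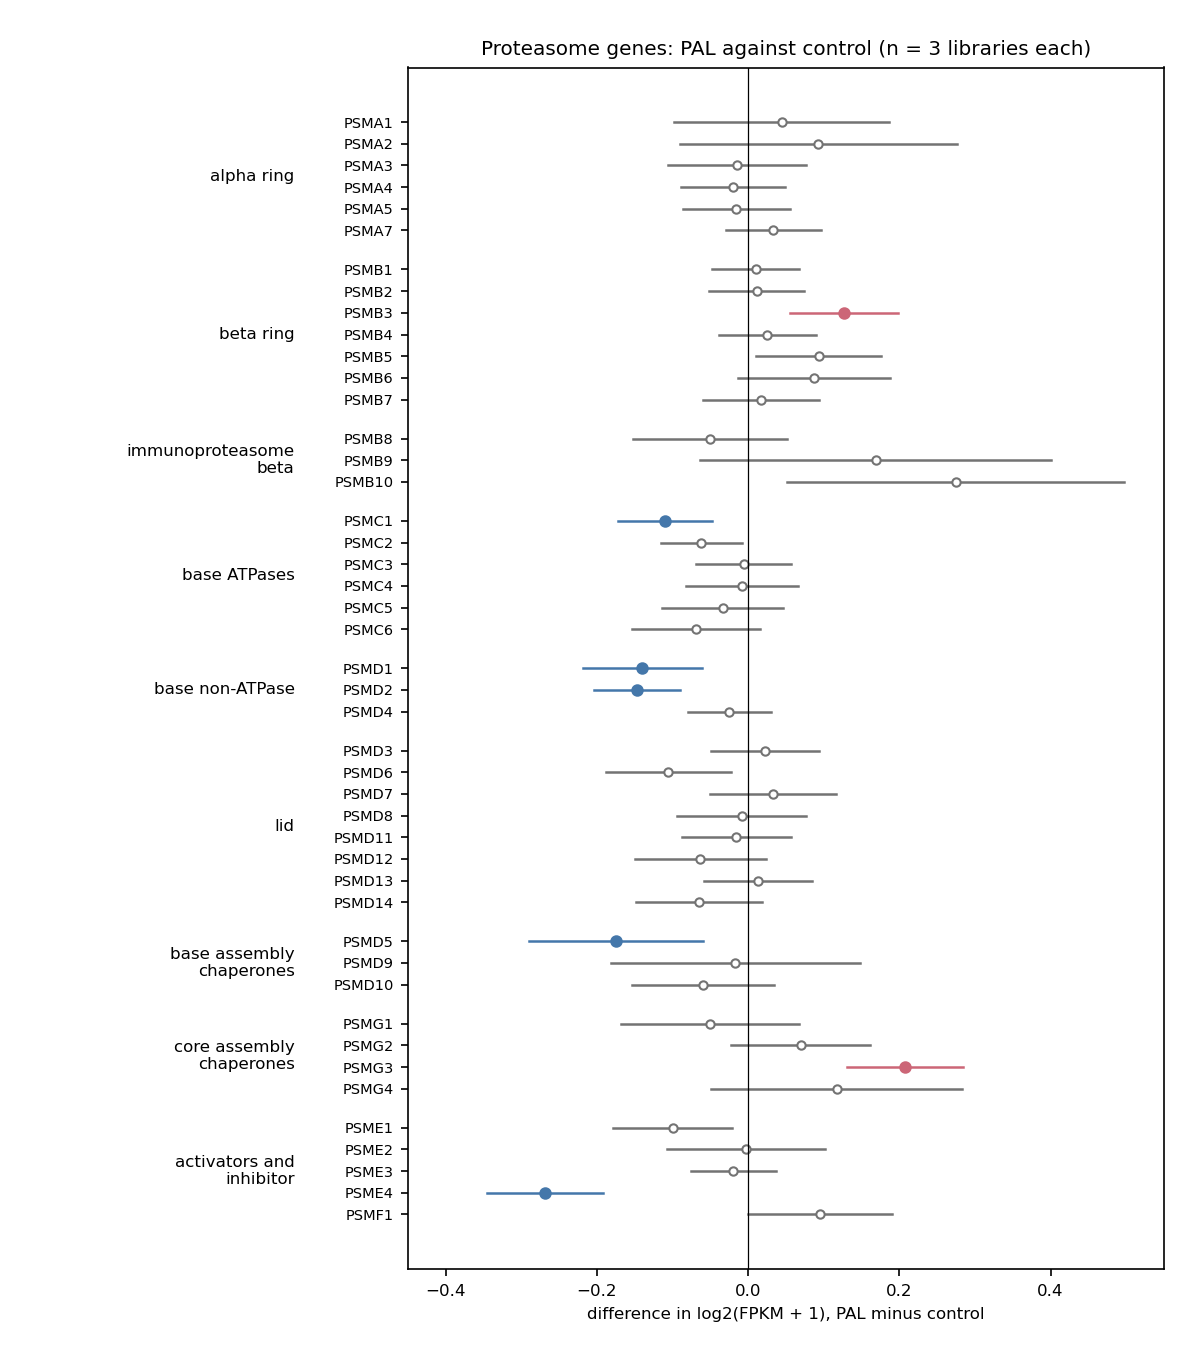
Log2 difference (PAL minus control, log2(FPKM + 1) scale) of the 45 tested proteasome genes, grouped by role, with bars for the 95% interval of the limma fit over 3 libraries per group; filled red points passed the test as higher in PAL, filled blue points as lower, and open grey points did not pass. Most points lie near 0, with the beta ring to the right of it and the ATPases and other base subunits to its left, from -0.27 for PSME4 to 0.27 for PSMB10.

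The direction of the counts depends on how the libraries are scaled. The split of members was 2 higher and 5 lower as deposited, 9 and 1 after scaling to TPM, which sets the length-scaled sum of each library equal, 10 and 2 after quantile normalization, and 14 and 1 with plain read totals. Of all genes called, 44% were higher as deposited, 69.7% in TPM, 59.2% after quantile normalization and 73.3% with plain totals. The library sizes behind the deposited FPKM, close to those from the median of gene ratios, bring the median difference of all genes near 0. That median was 0.0043 as deposited, 0.072 in TPM, 0.032 after quantile normalization and 0.075 with plain totals. Relative to that median, the members' own stood at -0.013, -0.011, 0.027 and 0.0003. The members' median thus stayed close to that of all genes in each of the 4 scalings. The share of assigned reads that fell on members was 0.792%, 0.799% and 0.794% in control and 0.836%, 0.830% and 0.829% in PAL.

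In the alpha ring, which forms the gate of the barrel, 0 of 6 tested genes passed in limma. The count was also 0 for an unadjusted p below 0.05 and 0 for voom, which fits recovered read counts with precision weights. Differences of 3 genes lay above 0 and 3 below as deposited, and all 6 lay above 0 in TPM, after quantile normalization and with plain totals. Values ran from -0.020 for PSMA4 to 0.093 for PSMA2. PSMA7 had the highest level of the ring, at 233, 241 and 237 FPKM in the control libraries and 239.9, 249.7 and 239 in the PAL libraries. Its groups overlapped, and its difference was 0.033 (SE 0.026), adjusted p = 0.39. PSMA7 was the gene of the ring that passed, as higher, in TPM, after quantile normalization and with plain totals. PSMA3, PSMA4 and PSMA5 lay between 31.1 and 40.4 FPKM in all 6 libraries. PSMA8, which replaces an alpha subunit in the testis, had 0 reads, where a floor set at 3 reads would be 0.0860 to 0.107 FPKM in a library.

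All 7 beta ring genes lay above 0, as deposited and in the other 3 scalings, from 0.010 for PSMB1 to 0.13 for PSMB3, and 1 of them passed. In TPM 4 of the 7 passed as higher, after quantile normalization 5 and with plain totals 6. PSMB3, a structural subunit without a proteolytic site, rose in PAL. Its gene is ENSG00000277791, at chr17:38752736-38764231, plus strand of hg38. It stood at 149, 149 and 157 FPKM in the control libraries and 165, 169 and 163 in the PAL libraries. The groups did not overlap, and the gap between the highest control library and the lowest PAL library was smaller than the range within control. The mean went from 152 ± 4.95 to 166 ± 3.06 FPKM (SD, n = 3), a difference of 0.13 (SE 0.030), adjusted p = 0.0237. The call was lost without control replicate 1, control replicate 2, PAL replicate 1 or PAL replicate 2, and adjusted p ranged from 0.00272 to 0.0801 over 18 alternative settings.

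The 3 proteolytic subunits of the standard core did not pass. PSMB5, the chymotrypsin-like site that bortezomib inhibits, stood at 94.6, 92.5 and 98.6 FPKM in the control libraries and 102, 105 and 98.0 in the PAL libraries. PAL library 3 lay below control library 3, so the groups overlapped, with a difference of 0.093 (SE 0.035) and adjusted p = 0.0939. PSMB5 passed in TPM, after quantile normalization, with plain totals and without both libraries numbered 3. PSMB6, the caspase-like site, stood at 107, 105 and 109 FPKM in the control libraries and 111, 121 and 109 in the PAL libraries, with adjusted p = 0.176. PSMB7, the trypsin-like site, stood at 172, 182 and 169 FPKM in the control libraries and 176, 179.7 and 175 in the PAL libraries, with adjusted p = 0.739. PSMB7 differed by 0.017 with a 95% interval of -0.060 to 0.094, which lies within 1.25-fold. PSMB4 had the highest level of all members, at 241, 246 and 255 FPKM in the control libraries and 254, 249.5 and 251 in the PAL libraries, and its difference was 0.025 (SE 0.027). The groups of PSMB6, PSMB7 and PSMB4 overlapped.

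The inducible counterparts of those sites stood at lower levels, and 0 of 3 passed in limma, with 0 by voom and 1 where p is left unadjusted (below 0.05). PSMB8, the inducible counterpart of PSMB5, stood at 14.3, 14.8 and 14.2 FPKM in the control libraries and 13.3, 14.7 and 13.7 in the PAL libraries, with a difference of -0.051 (SE 0.043) and adjusted p = 0.426. PSMB9, the counterpart of PSMB6, stood at 3.25, 4.59 and 3.72 FPKM in the control libraries and 4.32, 4.58 and 4.36 in the PAL libraries, with a difference of 0.17 (SE 0.098) and adjusted p = 0.245. The groups of both overlapped. For PSMB9 control libraries 1 and 3 lay below every PAL library, and without control replicate 2 it was called higher (adjusted p = 0.0434, from 0.0434 to 0.552 over its alternative settings). PSMB10, the counterpart of PSMB7, stood at 1.94, 1.79 and 2.13 FPKM in the control libraries and 2.99, 2.20 and 2.55 in the PAL libraries. Here every PAL library lay above every control library, by a difference of 0.27 (SE 0.094), and adjusted p was 0.0736. It was called higher in TPM, with plain totals and over protein-coding genes only, with adjusted p from 0.0335 to 0.189 over its alternative settings. PSMB10 rested on 49 to 102 reads a library, and its 95% interval ran from 0.051 to 0.50, the widest but one of the 45. The sum of the inducible subunits was 0.0222 of the beta ring's in control and 0.0221 in PAL (n = 3 each), and the groups overlapped. PSMB11, the thymus subunit, had 0 reads, with 3 reads worth 0.0772 to 0.0960 FPKM.

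All 9 genes of the 19S base lay below 0 as deposited, and 3 of them fell in PAL. In TPM 5 of the 9 lay above 0, after quantile normalization 4 and with plain totals 6, among them PSMC4 and PSMD4 each time. None passed in TPM or with plain totals, and after quantile normalization 2 passed as higher, PSMC3 and PSMC4, and 1 as lower, PSMD1. PSMD2, the scaffold that receives ubiquitin-like domains, was the clearest. Its gene, ENSG00000175166, lies at chr3:184298709-184309054, plus strand. It stood at 87.6, 85.1 and 87.3 FPKM in the control libraries and 77.5, 77.8 and 79.3 in the PAL libraries. Every PAL library was below every control library. The mean went from 86.7 ± 1.39 to 78.2 ± 0.957 FPKM, a difference of -0.15 (SE 0.024), adjusted p = 0.00615. The call held in 15 of 18 alternative settings and was lost in TPM, after quantile normalization and with plain totals, where the difference was at its smallest at -0.044.

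PSMD1, the largest subunit of the base and its other scaffold, behaved alike in direction. It lies at chr2:231056864-231172827, plus strand (ENSG00000173692) and stood at 41.9, 40.6 and 40.9 FPKM in the control libraries and 36.4, 36.5 and 38.8 in the PAL libraries. PAL library 3 was the nearest to control, and the groups did not overlap. The difference was -0.14 (SE 0.033), adjusted p = 0.0238, and the call was lost in 9 of 18 settings (adjusted p from 0.00448 to 0.223 over all settings), among them leaving out control replicate 1, control replicate 2, PAL replicate 1 or PAL replicate 2. PSMC1, an ATPase of the ring, lies at chr14:90256495-90275429, plus strand (ENSG00000100764) and stood at 33.5, 33.3 and 34.0 FPKM in the control libraries and 30.5, 31.0 and 31.6 in the PAL libraries. The groups were separate, by a difference of -0.11 (SE 0.026) with adjusted p = 0.0238. That call was lost in 11 of 18 settings (adjusted p from 0.0107 to 0.445 over all settings), each leave-one-out except that of PAL replicate 3 among them. Of PSMC1's coding bases, 47.7% also lie in exons of NRDE2 on the opposite strand, and the sources used here do not say whether the authors' counting used strand.

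The other base genes did not pass. PSMC2, PSMC6 and PSMC1 were the ATPases whose groups did not overlap. PSMC2 stood at 55.6, 54.9 and 54.5 FPKM in the control libraries and 52.7, 52.3 and 53.0 in the PAL libraries, with adjusted p = 0.0879. PSMC4 had the highest level of the ATPases, at 119, 121 and 126 FPKM in the control libraries and 125, 121 and 119 in the PAL libraries. Its difference of -0.0084 turned to 0.063 in TPM, 0.10 after quantile normalization (adjusted p = 0.042, from 0.042 to 0.944 over 18 settings) and 0.076 with plain totals. PSMD4, the base's receptor for ubiquitin chains, stood at 117, 119 and 116 FPKM in the control libraries and 117, 115 and 114 in the PAL libraries, with a difference of -0.025 (SE 0.023) and adjusted p = 0.466.

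In the lid, 0 of 8 genes passed in limma, 1 had an unadjusted p below 0.05 and voom called 1, as lower. With plain totals 3 of the 8 passed as higher, PSMD3, PSMD7 and PSMD13, and in TPM and after quantile normalization 0 passed, with 3 at an unadjusted p below 0.05 each. As deposited 3 lay above 0 and 5 below, and in TPM 7 and 1. PSMD8 had the highest level there, at 88.0, 85.5 and 87.4 FPKM in the control libraries and 86.2, 90.5 and 82.7 in the PAL libraries, with overlapping groups and a difference of -0.0088 (SE 0.036). PSMD14, the deubiquitinase of the lid, had a difference of -0.065 (SE 0.035) and adjusted p = 0.213. PSMD6 was the member of the lid farthest from 0. It stood at 21.6, 21.0 and 21.4 FPKM in the control libraries and 20.4, 19.01 and 19.9 in the PAL libraries, without overlap, and its adjusted p was 0.0654. It was the gene that voom called. The whole lid ran from -0.11 to 0.033, the latter for PSMD7.

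Among the activators, PSME4 had the largest difference of the 5 members that fell. It encodes PA200, a single-chain activator that caps the core without ATP and is known for acetylated histones as substrates. Its gene, ENSG00000068878, lies at chr2:53864067-53970840, minus strand. It stood at 15.6, 15.2 and 15.3 FPKM in the control libraries and 12.4, 12.5 and 12.9 in the PAL libraries. The lowest control library was above the highest PAL library by several times the spread within either group. The mean went from 15.4 ± 0.246 to 12.6 ± 0.264 FPKM, 0.819 of control, with a difference of -0.27 (SE 0.032), 95% interval -0.35 to -0.19, and adjusted p = 0.00187. The call held in 18 of 18 alternative settings, with adjusted p from 1.13e-05 to 0.0151.

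The other activators did not pass. PSME1, a subunit of the interferon-inducible activator PA28, stood at 36.2, 38.5 and 38.5 FPKM in the control libraries and 35.7, 34.5 and 35.1 in the PAL libraries. The groups did not overlap, with a difference of -0.10 (SE 0.033) and adjusted p = 0.0681, and it passed only without control replicate 1. PSME2, its partner subunit, had a difference of -0.0028 (SE 0.044) and overlapping groups. PSME3, the nuclear activator and the highest of the class, stood at 75.9, 74.9 and 74.1 FPKM in the control libraries and 74.8, 72.8 and 74.3 in the PAL libraries, with a difference of -0.019 (SE 0.024) and adjusted p = 0.586. PSMF1, an inhibitor of the core, stood at 17.1, 16.5 and 17.3 FPKM in the control libraries and 17.5, 18.0 and 19.1 in the PAL libraries. All PAL libraries were above control, with a difference of 0.095 (SE 0.040) and adjusted p = 0.126. PSMF1 passed as higher in TPM, after quantile normalization and with plain totals.

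Of the 7 assembly chaperones, 1 rose and 1 fell. PSMG3, a chaperone of alpha ring assembly that pairs with PSMG4, rose in PAL. It lies at chr7:1567330-1571005, minus strand (ENSG00000157778) and stood at 25.5, 25.2 and 24.3 FPKM in the control libraries and 29.8, 28.4 and 29.02 in the PAL libraries. Every PAL library exceeded every control library. The mean went from 25.04 ± 0.621 to 29.1 ± 0.713 FPKM, 1.16 of control, with a difference of 0.21 (SE 0.032) and adjusted p = 0.00524. The call held in 18 of 18 settings, with adjusted p from 0.00165 to 0.0336. PSMG4 stood at 1.14, 1.07 and 1.17 FPKM in the control libraries and 1.21, 1.35 and 1.37 in the PAL libraries, also without overlap, but with adjusted p = 0.258. PSMG1 and PSMG2, the other chaperone pair, had differences of -0.050 and 0.069 with adjusted p of 0.493 and 0.231. PSMG2 passed as higher in TPM and with plain totals.

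PSMD5, which holds ATPase pairs of the base before they join the core, fell in PAL. It lies at chr9:120815496-120842984, minus strand (ENSG00000095261) and stood at 17.3, 16.3 and 16.1 FPKM in the control libraries and 14.7, 13.7 and 15.2 in the PAL libraries. The groups did not overlap. The difference was -0.17 (SE 0.049), adjusted p = 0.0382, and the call was lost in 11 of 18 settings (adjusted p from 0.0123 to 0.181 over all settings), each leave-one-out except that of PAL replicate 3 among them. PSMD10, also known as gankyrin, stood at 24.3, 26.5 and 25.9 FPKM in the control libraries and 25.1, 24.2 and 24.1 in the PAL libraries, with overlapping groups and adjusted p = 0.302. PSMD9 differed by -0.017 (SE 0.070), adjusted p = 0.875.

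**Figure D2:**
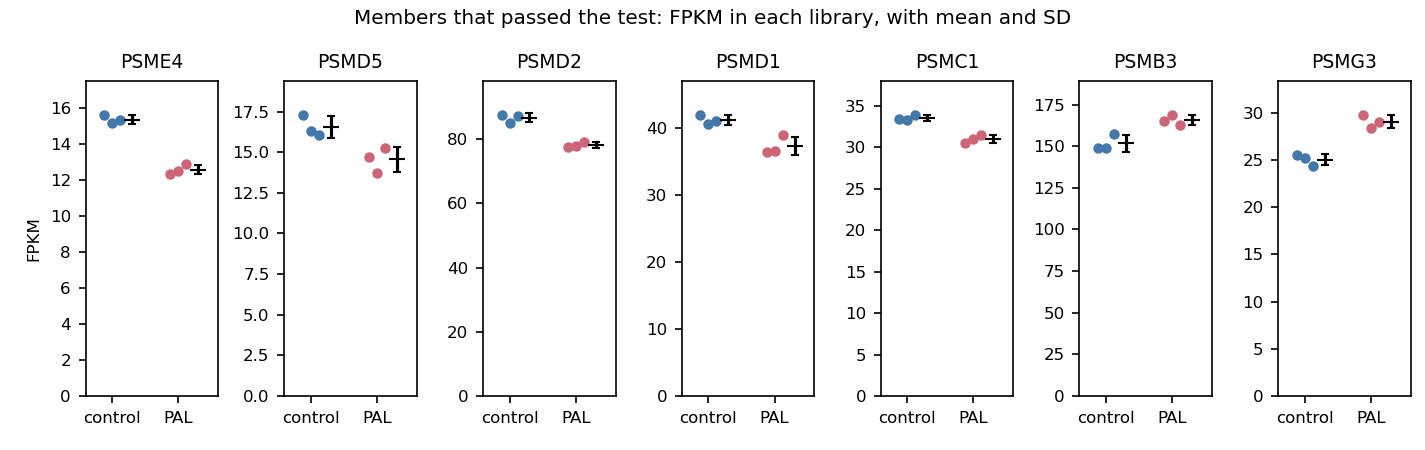
FPKM in each library (points, replicates 1 to 3 from left to right) of the 7 proteasome genes that passed the test, with mean and SD (n = 3) beside them; each axis starts at 0. PAL lies below control in PSME4, PSMD5, PSMD2, PSMD1 and PSMC1 and above it in PSMB3 and PSMG3, and no pair of groups overlaps.

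Sums over classes show the balance between the parts of the particle. All members summed to 2567 ± 20.7 FPKM in control and 2578 ± 18.6 in PAL, with overlapping groups. PAL stood at 1.04 of control for the beta ring, 1.01 for the alpha ring and 0.965 for the 19S base. The lid stood at 0.994, the activators and inhibitor at 0.968, the core chaperones at 1.06 and the base chaperones at 0.928. With TPM or plain totals the base stood at 1.01 or 1.02, the lid at 1.04 or 1.05 and the activators at 1.02 or 1.03, so the direction of these sums turned, while the beta ring (1.09 or 1.10) and the base chaperones (0.975 or 0.985) kept theirs.

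A ratio of classes within a library is the same under any scaling by 1 factor per library, which quantile normalization is not. The beta ring over the 19S base was 1.42, 1.41 and 1.43 in control and 1.52, 1.56 and 1.51 in PAL. The groups did not overlap, with means of 1.42 ± 0.00832 and 1.53 ± 0.0259 (SD, n = 3), PAL 1.076 of control. That ratio was 1.088 with geometric means, 1.071 with reads per coding length and 1.091 without PSMB4 and PSMC4, the highest gene of the beta ring and of the base. These 2 genes had log2 differences near 0 (0.025 and -0.0084), so leaving them out could only raise the ratio. How far the ratio rests on the called members PSMB3, PSMD1, PSMD2 and PSMC1 was not tested. After quantile normalization, with all genes kept, the ratio was 1.073. The standard 20S core over the whole cap was 1.247, 1.248 and 1.251 in control and 1.315, 1.337 and 1.306 in PAL, 1.057 of control, and 1.059 after quantile normalization. The lid over the base moved from 0.5821 ± 0.00321 to 0.5997 ± 0.00841, without overlap, with PAL 1.030 of control and 1.015 after quantile normalization. The alpha ring over the beta ring was 0.389 ± 0.00804 and 0.380 ± 0.00183, with overlap. No test was run on these ratios, because the classes were chosen with results of these data known.

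**Figure D3:**
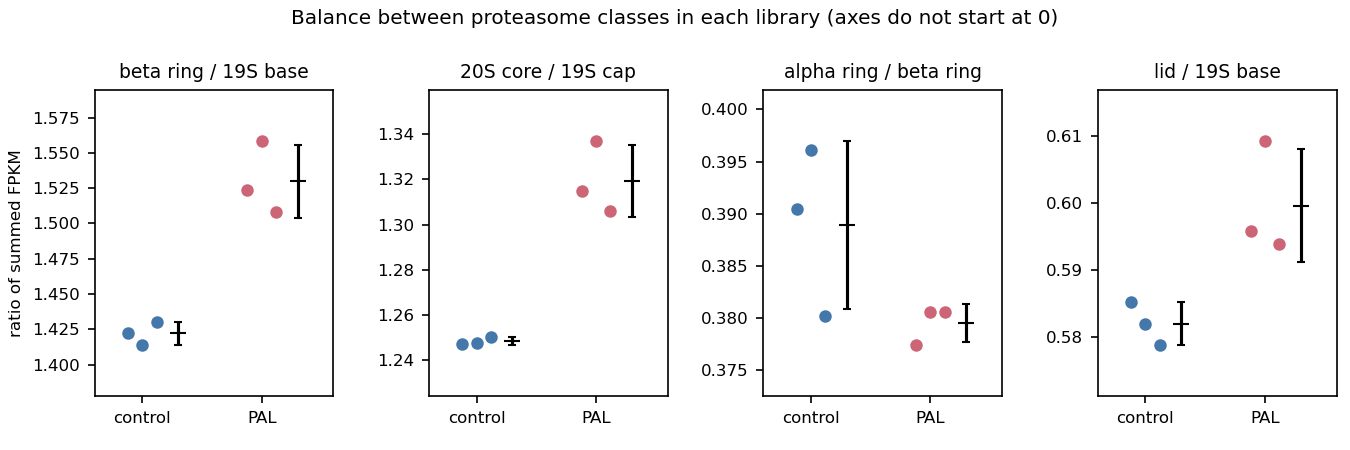
Ratio of summed FPKM between classes of proteasome genes in each library (points), with mean and SD (n = 3); the axes do not start at 0. The beta ring over the 19S base lies at 1.41 to 1.43 in control and 1.51 to 1.56 in PAL, the 20S core over the 19S cap and the lid over the base also separate the groups, and the alpha ring over the beta ring does not.

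The members that fell had longer coding sequences than most others. Coding length was 1320 to 5529 bases in the 5 that fell, with a median of 2724, and 366 to 615 in the 2 that rose. In the 38 that did not pass it was 369 to 1602. PSME4, PSMD1 and PSMD2 are the 3 longest of the 45, and PSMG3 is the shortest. Over the 45 members, Pearson's r between the log2 of coding length and the difference was -0.72 and Spearman's rho -0.60, and without PSME4 they were -0.65 and -0.57. Over 10333 protein-coding genes with a value the same measures were -0.089 and -0.22. Within the 16 tested genes of the 20S core r was -0.15 and rho -0.22, and within the 17 of the cap they were -0.61 and -0.37. These are correlations across genes that share the same 6 libraries, and genes are not independent replicates.

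Length and role cannot be told apart between the beta ring, with 603 to 831 coding bases, and the base ATPases, with 1209 to 1320. The alpha ring, at 702 to 789 bases, had 3 genes above 0 and 3 below as deposited, against 7 and 0 in the beta ring. The lid, at 930 to 1602 bases, had 3 above 0 and 5 below, against 0 and 6 among the ATPases. The GC content of the main transcript also moved with the difference, with r of 0.49 and rho of 0.48 over the members and 0.16 and 0.34 over all protein-coding genes. The part of length or GC in the differences was not tested.

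**Figure D4:**
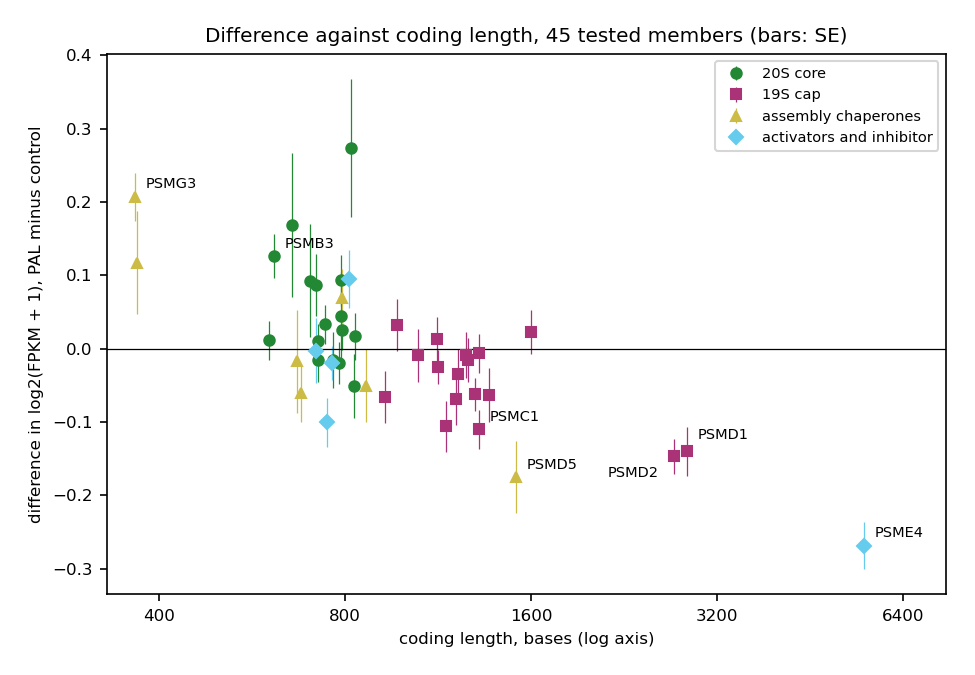
Log2 difference (PAL minus control, log2(FPKM + 1) scale) against coding length in bases (log axis) for the 45 tested members, with bars for the SE of the limma fit and the 7 genes that passed named. The longest genes, PSMD2, PSMD1 and PSME4, all lie below 0, and the shortest, PSMG3, lies at 0.21.

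Levels of the subunits were far from equal, although most are present in equal copies in the particle. By mean FPKM over the 6 libraries, PSMB4 (249) and PSMA7 (239.9) were highest, followed by PSMB7 (176), PSMB3 (159) and PSMC4 (122). PSMB4 and PSMA7 overlapped across libraries, and so did PSMC4 and PSMD4. PSMA6 (0.659), PSMA2 (1.17) and PSMG4 (1.22) were lowest of the 46 with reads. The gene length behind FPKM was the union of all annotated exons, 1179 bases for PSMB3 and 10418 for PSMG4, which lowers genes with many long isoforms. With all reads divided by the coding length, which raises genes with long untranslated ends, PSMB4 and PSMA7 stayed first and second by rank, while PSME3 went from rank 13 to 3, PSMB2 from 17 to 4 and PSMA4 from 22 to 6.

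The low levels of several alpha genes come with overlapping gene models. On the same strand, 100% of the coding bases of PSMA2, 91% of PSMA1 and 89.7% of PSMA6 also lie in exons of another gene, AC010132.3, AC018523.2 and AL121594.1. For PSMD9 the share was 68.3% (AC069503.2 and WDR66), and for PSMB10 it was 60% (AC040162.1). In total over the 6 libraries, the genes over PSMA2, PSMA1 and PSMA6 hold 2, 1 and 3 reads. AC040162.1 holds 101 reads and WDR66 holds 116, while AC069503.2 has 0. The sources used here do not say how reads shared by 2 genes were counted, so the levels of these 5 members are uncertain. PSMA6 stood at 0.825, 0.633 and 0.734 FPKM in the control libraries and 0.643, 0.516 and 0.601 in the PAL libraries, from 56 to 85 reads a library. Among the 37 rows of pseudogenes and other biotypes with proteasome symbols, 20 had no reads and 2 were tested, PSMA3-AS1 (adjusted p = 0.842) and PSMC1P1 (adjusted p = 0.725).

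**Figure D5:**
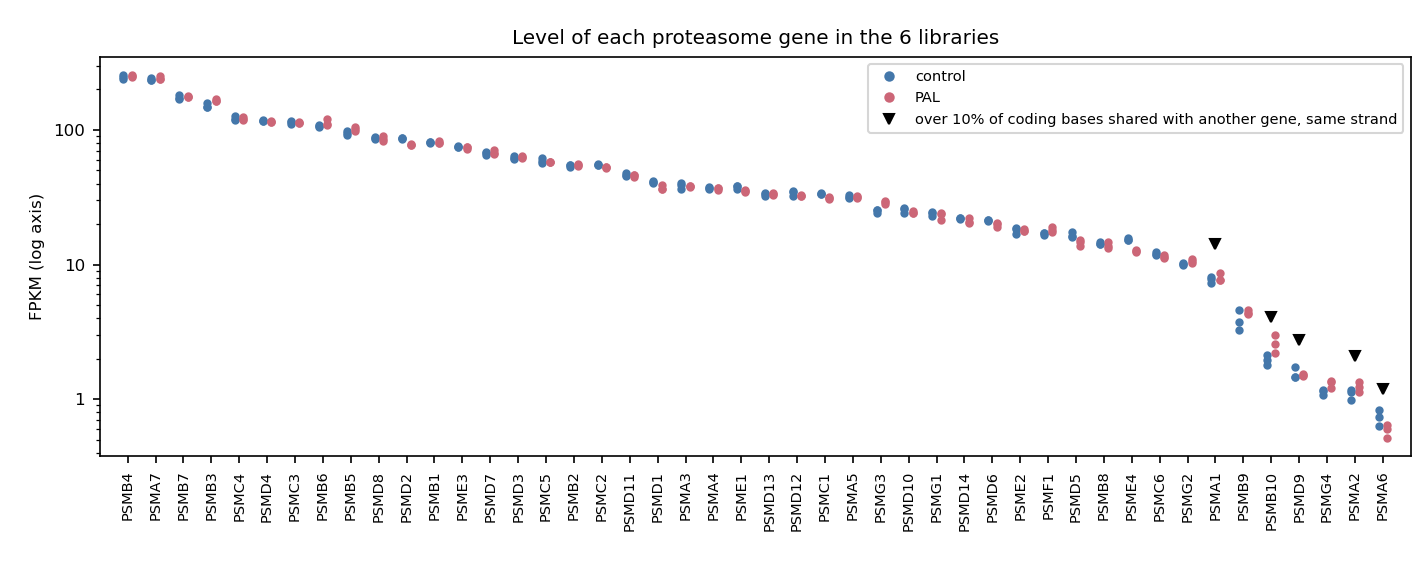
FPKM (log axis) in each control (blue) and PAL (red) library of the 46 members with reads, ordered by mean level; triangles mark members with over 10% of coding bases in exons of another gene on the same strand. Levels run from near 250 FPKM for PSMB4 and PSMA7 to below 1 for PSMA6, and control and PAL points lie close together for each gene.

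Of 13 further proteasome proteins under other symbols, 4 fell (30.8%, beside 25.9% of all genes called) and 0 rose in limma, with 0 rises by voom and 0 where p is left unadjusted (below 0.05). With plain totals 2 rose and 2 fell. POMP, the chaperone that completes the core, had 194 ± 6.10 FPKM in control libraries and 196 ± 1.21 FPKM in PAL libraries, with a difference of 0.019 (SE 0.028) and adjusted p = 0.651. The ubiquitin receptor ADRM1 (0.0051), the deubiquitinases UCHL5 (-0.00031) and USP14 (-0.044), the lid subunit SEM1 (0.048) and the assembly factor PAAF1 (0.11) did not pass. ZFAND5, a zinc finger protein that stimulates the 26S particle, fell from 30.2 ± 1.56 to 19.2 ± 0.477 FPKM, a difference of -0.63 (SE 0.043), adjusted p = 1.39e-04. ECPAS, a scaffold that binds the 26S particle, also fell (log2 difference -0.25, adjusted p = 0.00353). FBXO7, an F-box protein that binds the inhibitor PSMF1, fell too (log2 difference -0.16, adjusted p = 0.0177). The FBXO7 call was lost in TPM, with plain totals, with the replicate number as a block and without both libraries numbered 3. Its losses with 1 library left out are given further below.

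Of 11 genes listed for the control of proteasome transcription, 2 rose and 3 fell (45.5%, beside 25.9% of all genes called). The 6 that did not pass were NFE2L1, NFE2L2, NFE2L3, DDI2, NGLY1 and SEL1L. NFE2L1 stood at 48.6, 48.8 and 49.1 FPKM in the control libraries and 44.6, 46.8 and 46.4 in the PAL libraries. Its groups did not overlap, its difference was -0.087 (SE 0.027) and its adjusted p was 0.057, and it was called lower by voom and by limma when genes averaging under 5 FPKM were left out. Its difference was -0.017 in TPM, -0.052 after quantile normalization and -0.0030 with plain totals, with adjusted p from 0.0306 to 0.94 over 18 settings. NFE2L2, its relative in the oxidative stress response, had a difference of 0.083 (SE 0.049) and adjusted p = 0.252. It was called higher with plain totals (0.16, adjusted p = 0.0366, from 0.0366 to 0.56 over 18 settings). KEAP1, which targets NFE2L2 for degradation, rose (log2 difference 0.22, adjusted p = 0.00185). Of the small MAF proteins, with which these factors pair, MAFG rose (0.20, adjusted p = 0.0428). MAFF fell from 17.6 ± 2.20 to 4.80 ± 0.424 FPKM (-1.68, adjusted p = 5.90e-05), and MAFK fell (-0.55, adjusted p = 0.0145). BACH1, a repressor at the same elements, fell (-0.30, adjusted p = 0.00986).

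Upstream of the proteasome, UBB fell by far more than any member. UBB is a polyubiquitin gene, which codes for ubiquitin repeats and is known to be induced by heat shock. UBB stood at 883, 891 and 924 FPKM in the control libraries and 528, 544 and 513 in the PAL libraries, a difference of -0.77 (SE 0.030), adjusted p = 1.58e-05. Every PAL library lay far below every control library. RPS27A, which codes for ubiquitin fused to a ribosomal protein, did not pass, with a difference of -0.070. Among the receptors and carriers of ubiquitin chains, UBQLN1, a shuttle receptor, and VCP, the segregase that extracts substrates, fell (-0.18 and -0.19, adjusted p = 0.00538 and 0.00136). The VCP call was lost after quantile normalization (limma adjusted p = 0.0842).

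In the MHC class I pathway, which displays peptides cut by the proteasome, 7 of 14 tested genes fell (50%, beside 25.9% of all genes called) and 0 rose in limma, with 1 rise by voom and 1 where p is left unadjusted (below 0.05). TAP1, a subunit of the peptide transporter whose gene lies beside PSMB9, fell from 7.66 ± 0.119 to 6.37 ± 0.328 FPKM, a difference of -0.23 (SE 0.046), adjusted p = 0.0119. IRF1, a transcription factor of interferon-inducible genes, fell from 5.78 ± 0.460 to 1.81 ± 0.0865 FPKM, a difference of -1.27 (SE 0.064), adjusted p = 4.21e-05. HLA-B, a class I heavy chain, also fell (log2 difference -0.27, adjusted p = 0.00177). The other genes called were HLA-E, CALR, CANX and PDIA3. As deposited 3 of the 14 lay above 0 and 11 below, with TAP2, the other transporter subunit, highest at 0.17 (adjusted p = 0.0772). In TPM 1 rose and 5 fell, after quantile normalization 1 and 5, and with plain totals 2 and 5. PSMB8, PSMB9, PSMB10, PSME1 and PSME2, the proteasome genes that interferon induces, did not pass in FPKM as deposited, and the settings in which some of them did are given above.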

How the data were processed

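Poly-A enriched RNA of A375 cells was measured in 3 PAL and 3 control libraries, with groups and replicate numbers from the sample titles. The authors deposited 1 FPKM value per gene and library with gene lengths and positions, per the file headers. The build hg38 is named in the submitters' processing notes, and the sources used here name no aligner, counter or use of strand. All 58735 genes share start and end with GENCODE 29. FPKM times gene length gave whole reads (within 0.01) for all values above 0, so reads and depth were recovered, and floors from them cover counting error only.

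Tests used limma 3.58.1 in R 4.3.3 on log2(FPKM + 1) with a variance trend, 4 residual degrees of freedom and Benjamini-Hochberg adjustment over 12258 genes. It was also run on simulated reads with far fewer changed genes than were called here, and no result rests on that run. The members and lists were chosen with earlier results of these data known. Named genes were all called members (at most 4 per class), the highest of each class, PSMB5 to PSMB10, up to 3 rises and 3 falls of each other list, and a fixed set of regulators. PSMA1 to PSMA6, PSMB1, PSMB2, PSMC2, PSMC6, PSMD6, PSMD7, PSMD9, PSMD14, PSME1, PSME2, PSMF1, PSMG1, PSMG2, PSMG4 and RPS27A were outside it and were named after their values were seen. The same holds for NFE2L3, DDI2, NGLY1, SEL1L, HLA-E, CALR, CANX, PDIA3 and TAP2. All 133 list entries matched, and some genes of the lists are not reported here. Replicates differed by more than counting noise, with a chi-square over its degrees of freedom of 2.02 to 4.48 within groups. Alternatives covered pseudocount, filter, scaling, gene set, variance model, voom, replicate block and libraries left out, with 4 for the class ratios added after seeing the data. Figures used matplotlib 3.10.9.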

Additional observations from a re-analysis of the deposited data

How the results depend on the processing

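The calls on PSME4 and PSMG3 held in 18 of 18 alternative settings, and none of the 7 called members turned in direction. The counts moved more. Without the filter on low values 2103 genes were called, of them 1 member higher and 3 lower. The members' counts were 9 higher and 1 lower in TPM, 10 and 2 after quantile normalization, 14 and 1 with plain read totals, and 1 and 2 without a variance trend. Leaving out 1 library gave 1855 to 2789 genes, 1 to 2 members higher and 2 to 5 lower, lowest for genes without PAL replicate 2. Fewer samples enter those fits. The cause of the other changes was not tested.

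The members' median log2 difference was -0.015 with a mean of at least 5 FPKM, 0.062 in TPM, 0.059 after quantile normalization, 0.076 with plain totals and -0.014 without both libraries numbered 3, and it ran from -0.011 to 0.0024 with 1 library left out. PAL over control of the beta ring over the 19S base was 1.091 without PSMB4 and PSMC4, and that of the 20S core over the cap was 1.047 with geometric means.

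Genes that had not passed turned in sign under some settings. In TPM, after quantile normalization and with plain totals, in this order, PSMC4 stood at 0.063, 0.10 and 0.076, PSMD4 at 0.046, 0.078 and 0.060, and PSMD8 at 0.062, 0.090 and 0.076. PSME3 stood at 0.051, 0.062 and 0.065, UCHL5 at 0.070, 0.035 and 0.082, and USP14 at 0.025, 0.0097 and 0.038. PSMB8 stood at 0.017 in TPM and 0.029 with plain totals, and PSMD10 at 0.0085 and 0.022. UCHL5 stood at 0.00056 with voom. Without both libraries numbered 3, POMP stood at -0.0099, PSMC4 at 0.031 and PSMD8 at 0.026. With 1 library left out, ADRM1 ranged from -0.016 to 0.046, POMP from -0.0050 to 0.040, PSMB7 from -0.0054 to 0.048, PSMC4 from -0.028 to 0.015, PSMD8 from -0.042 to 0.023, SEM1 from -0.0045 to 0.095 and UCHL5 from -0.050 to 0.024.

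Of the other genes named, calls were lost with 1 library left out for MAFG (without any of 5 libraries, all but control replicate 3; adjusted p from 0.00647 to 0.124 over all settings), MAFK (PAL replicate 2; 2.00e-04 to 0.0551) and FBXO7 (control replicate 1, PAL replicate 1 or PAL replicate 2; 0.00426 to 0.102). MAFG and MAFK also lost theirs without the filter and with the replicate number as a block, and MAFG without a variance trend. Losses of S100B are given above. For HLA-E, CALR, CANX, PDIA3 and KRT14, fits with 1 library left out are not reported here.

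With the replicate number as a block, 2131 genes were called, 1 member higher and 2 lower. The numbers did not pair the libraries: deviations of same-numbered libraries correlated at -0.024, 0.027 and -0.045, and not every library correlated best with its own number. With 3 libraries a group, differences of the size seen in most members could not be told from 0.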
